A study of Homo sapiens with 12 samples.

Results

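The small nucleolar RNA host long RNAs are long transcripts from whose introns small nucleolar RNAs are released, and they were followed here in CUTLL1, an established line from a human acute lymphoblastic leukaemia of T cells in which NOTCH1 is activated. Members were all genes whose symbol, mapped from the Ensembl identifier, was SNHG followed by a number, or GAS5, ZFAS1 or DANCR, with a value above 0 in at least 3 libraries. This gave 27 of the 62069 genes in the table. Of 31 such symbols known to the symbol table, 29 had a row. SNHG18 and SNHG27 had no value above 0 in 3 libraries, and SNHG4 and SNHG8 were not analysed here. A filter, which asked for a value of 10 or more in 3 or more libraries, left 19281 genes and 26 members. SNHG22 did not pass it, with values from 0 to 4.03, and it was not tested.

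The 12 poly-A selected libraries fall into 4 groups of 3, and all come from this 1 cell line. Cells received the solvent DMSO alone or 1 µM Compound E, a gamma-secretase inhibitor (GSI) that blocks release of active NOTCH1, and were collected at 12 or 48 h. No genotype or other agent distinguishes the groups. Nothing in the labels ties a replicate number to its own culture, and the spread between libraries may therefore be technical.

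Small nucleolar RNAs guide chemical modification of ribosomal RNA. Those of the C/D class direct ribose methylation and those of the H/ACA class direct pseudouridylation, while small Cajal body RNAs do the same for spliceosomal RNAs. After splicing, the excised intron is trimmed to the small RNA, and the spliced host is often unstable because nonsense-mediated decay removes it during translation. Many hosts begin with a run of pyrimidines, as ribosomal protein messages do. Ribosome production, which needs these small RNAs, is under the control of MYC, a known direct target of NOTCH1 in this leukaemia.

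Promoters of 4 host genes and the small RNAs carried by 3 hosts show both ends of this arrangement. Promoter windows run from 250 bases before to 50 bases after the RefSeq start, on GRCh38.p14 and on the strand of the gene. They belong to SNHG7 and SNHG17, which were lower under the GSI label at both times, and to SNHG31 and SNHG20, the next by p-value at 12 h with an entry in the table. Capitals mark an E-box (CACGTG), an RBPJ core (TGGGAA), an ETS site (CCGGAAG) or pyrimidines in a row from a C near the start.
SNHG17 (chr20:38435279-38435578, minus strand): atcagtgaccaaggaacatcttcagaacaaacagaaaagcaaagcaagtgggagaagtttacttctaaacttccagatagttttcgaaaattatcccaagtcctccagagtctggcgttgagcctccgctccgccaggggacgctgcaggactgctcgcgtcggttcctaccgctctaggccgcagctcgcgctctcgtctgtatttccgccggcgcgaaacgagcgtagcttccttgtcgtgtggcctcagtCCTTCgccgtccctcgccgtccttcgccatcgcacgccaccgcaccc
SNHG7 (chr9:136728135-136728434, minus strand): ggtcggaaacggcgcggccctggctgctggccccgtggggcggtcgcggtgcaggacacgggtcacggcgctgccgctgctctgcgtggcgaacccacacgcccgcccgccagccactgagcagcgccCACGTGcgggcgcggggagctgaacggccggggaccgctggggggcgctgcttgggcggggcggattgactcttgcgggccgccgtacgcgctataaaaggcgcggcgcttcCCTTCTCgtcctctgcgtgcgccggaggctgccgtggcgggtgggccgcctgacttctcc
SNHG31 (chr2:214809979-214810278, plus strand): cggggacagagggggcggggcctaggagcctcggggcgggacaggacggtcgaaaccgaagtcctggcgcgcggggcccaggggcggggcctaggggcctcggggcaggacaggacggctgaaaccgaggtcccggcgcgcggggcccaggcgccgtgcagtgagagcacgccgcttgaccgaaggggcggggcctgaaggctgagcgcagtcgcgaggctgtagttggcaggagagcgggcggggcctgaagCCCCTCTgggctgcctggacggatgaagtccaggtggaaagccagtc
SNHG20 (chr17:77088393-77088692, plus strand): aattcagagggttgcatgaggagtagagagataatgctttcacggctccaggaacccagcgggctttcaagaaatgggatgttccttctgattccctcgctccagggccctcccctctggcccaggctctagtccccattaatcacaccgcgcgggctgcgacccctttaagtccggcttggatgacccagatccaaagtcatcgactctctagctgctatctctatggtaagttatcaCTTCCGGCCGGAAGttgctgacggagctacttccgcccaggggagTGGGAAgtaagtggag
A stretch of 5 pyrimidines opening with C, within 10 bases of the start, was searched on the strand of the gene. It may lie inside a longer run, as in SNHG7 and SNHG17. Of 22 members past the filter with a promoter entry, 14 (63.6%) had it, against 33.3% of 27305 promoters of the same length. The other motifs were searched on both strands. An E-box was found in 2 of 22 (SNHG7 and SNHG30), against 7.43% of all. The RBPJ core was found in 5, namely SNHG3, SNHG16, SNHG20, SNHG29 and ZFAS1, against 24.3% of all. The ETS site was found in 2, SNHG20 and SNHG26, against 10.7%, and the core of the cyclic AMP response element (TGACGT) in 2, SNHG21 and SNHG30, against 8.32%. A match describes these letters only. SNHG15, SNHG6, SNHG9 and SNHG25 are named without a promoter.

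The small RNAs below are printed from GENCODE 29 on GRCh38. SNORA9 is an H/ACA RNA with the ACA box near the end in capitals, and it lies inside SNHG15, which was lower under the GSI label at both times. SNORD60 and SNORD7 are C/D RNAs with the C and D boxes in capitals, and they lie inside SNHG19 and SNHG30, whose levels were not called different between the treatment labels. These 3 were chosen after the values were seen.
SNORA9 (chr7:44985378-44985510, minus strand): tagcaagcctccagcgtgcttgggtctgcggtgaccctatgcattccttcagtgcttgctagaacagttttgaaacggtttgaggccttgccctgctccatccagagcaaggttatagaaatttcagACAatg
SNORD60 (chr16:2155023-2155105, minus strand): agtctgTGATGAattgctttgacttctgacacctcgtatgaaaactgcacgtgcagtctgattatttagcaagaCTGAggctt
SNORD7 (chr17:35573657-35573753, plus strand): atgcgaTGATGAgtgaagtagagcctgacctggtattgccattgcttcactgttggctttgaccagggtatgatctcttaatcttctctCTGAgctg
RefSeq places 142 small RNAs inside the spans of the 27 members, of which 120 are C/D, 18 H/ACA and 4 Cajal body RNAs. SNHG14, the long transcript of the imprinted region on chromosome 15, holds 83 of them, mostly copies of SNORD115 and SNORD116. GAS5 holds 11, SNHG1 holds 8, and SNHG28 holds none. Among the 26 members past the filter, 12 carry C/D RNAs alone, 8 carry H/ACA RNAs alone, SNHG10, SNHG20 and SNHG21 carry a Cajal body RNA, and GAS5 and SNHG12 carry both C/D and H/ACA RNAs.

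Values are normalised read counts, that is, each gene's reads after division by the library's size factor. Recovered depth ran from 73939612 to 160702764 reads per library. NRARP, DTX1 and MYC, targets of NOTCH1, checked the labels. NRARP had 42352 ± 6407 under DMSO and 21929.5 ± 4507 under GSI at 12 h, and 3030.0 ± 626.8 and 1701 ± 337.3 at 48 h (mean ± SD, n = 3). It was thus much lower under the 48 h label than under the 12 h label in either treatment. The 16 genes of a NOTCH1 target list had a median log2 difference of −0.49 between treatment labels at 12 h and −0.35 at 48 h, against −1.72 and −1.40 between time labels in DMSO and GSI. MYC followed this order too, with −0.53 and −0.35 between treatments and −1.14 and −0.95 between times. DTX1, a ubiquitin ligase of the pathway, differed by −0.49 ± 0.14 SE (adjusted p = 0.0244) and −0.49 ± 0.14 SE (adjusted p = 0.0408) between treatments and by −2.87 ± 0.14 SE and −2.87 ± 0.14 SE between times. HES1, another target, was not called between treatments (0.15 and −0.33). The groups are given as labelled, and every direction rests on those labels. Whether the labels of the groups GSI at 12 h and DMSO at 48 h are exchanged was not tested, and with such an exchange the treatment and time differences given here would trade places. All 13 T-lineage markers, among them CD3D, CD3E, CD7 and LCK, passed the filter in these libraries. Of 16 markers of other cells, MS4A1 and EPCAM were at 0 in all libraries, 10 stayed under 10 in all, and 5 passed the filter. Summed over those 5, a library held 760.3 to 2586 under DMSO and 911.6 to 1172 under GSI at 12 h, and 877.6 to 3106 and 916.7 to 975.0 at 48 h, most of it CD79A. Of the 13 T-lineage markers 2 were called lower at 12 h, against 11.4% of all genes. At 48 h 1 was called lower and 1 higher, against 5.35 and 4.33%. Of the other-cell markers 1 was called lower at 12 h and 0 at 48 h, where 0 passed an unadjusted p of 0.05 in limma. Their part in the members' differences was not tested, and in bulk RNA fewer cells of a type and less RNA per cell cannot be told apart.

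Together the 26 members made up 0.158 to 0.183% of a library's values under DMSO at 12 h, 0.129 to 0.138% under GSI at 12 h, 0.123 to 0.138% under DMSO at 48 h and 0.109 to 0.122% under GSI at 48 h. DMSO at 12 h was the highest group and did not overlap the others. GSI at 12 h and DMSO at 48 h overlapped. Per kilobase of exon (GENCODE 29 models, an approximation for counts made on another build), levels averaged over all libraries ran from 7.11 for SNHG28 to 7221 for SNHG32 among the 26. The C/D hosts had a median of 3362 per kilobase, with SNHG32, SNHG1 and SNHG19 at the top, and the H/ACA hosts a median of 1138, led by SNHG3 at 3028.

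At 12 h, most hosts of H/ACA RNAs were called lower under the GSI label, and the most abundant hosts of C/D RNAs were mostly not called different. The classes were set side by side after the values were seen, and a difference between them was not tested. SNHG15, SNHG17, SNHG7, SNHG16 and SNHG20 fell by about 0.64 to 0.78 on the log2 scale, and SNHG12, SNHG3 and SNHG31 by 0.97 to 1.69. SNHG1 and SNHG11 fell less, by 0.45 and 0.37. GAS5, ZFAS1, SNHG5 and SNHG29 were not called. Limma's moderated test, with Benjamini-Hochberg adjustment over all 19281 genes and a call at adjusted p under 0.05, called 10 of 26 members lower, against 11.4% of all genes, and 1 higher (SNHG28), against 10.1%. Over all genes this is 2201 lower and 1943 higher, a split that upper-quartile scaling turned to 1585 lower and 2536 higher. The median over the 26 was −0.33, against 0.00 over all genes. Adjusted p-values of single genes below come from this limma fit with n = 3 per group unless another tool is named, with every fold change on the scale of log2(value + 1).

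The plot of 9 hosts by library shows 6 that were called lower at 12 h and 3 abundant ones that were not called.

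**Figure D1:**
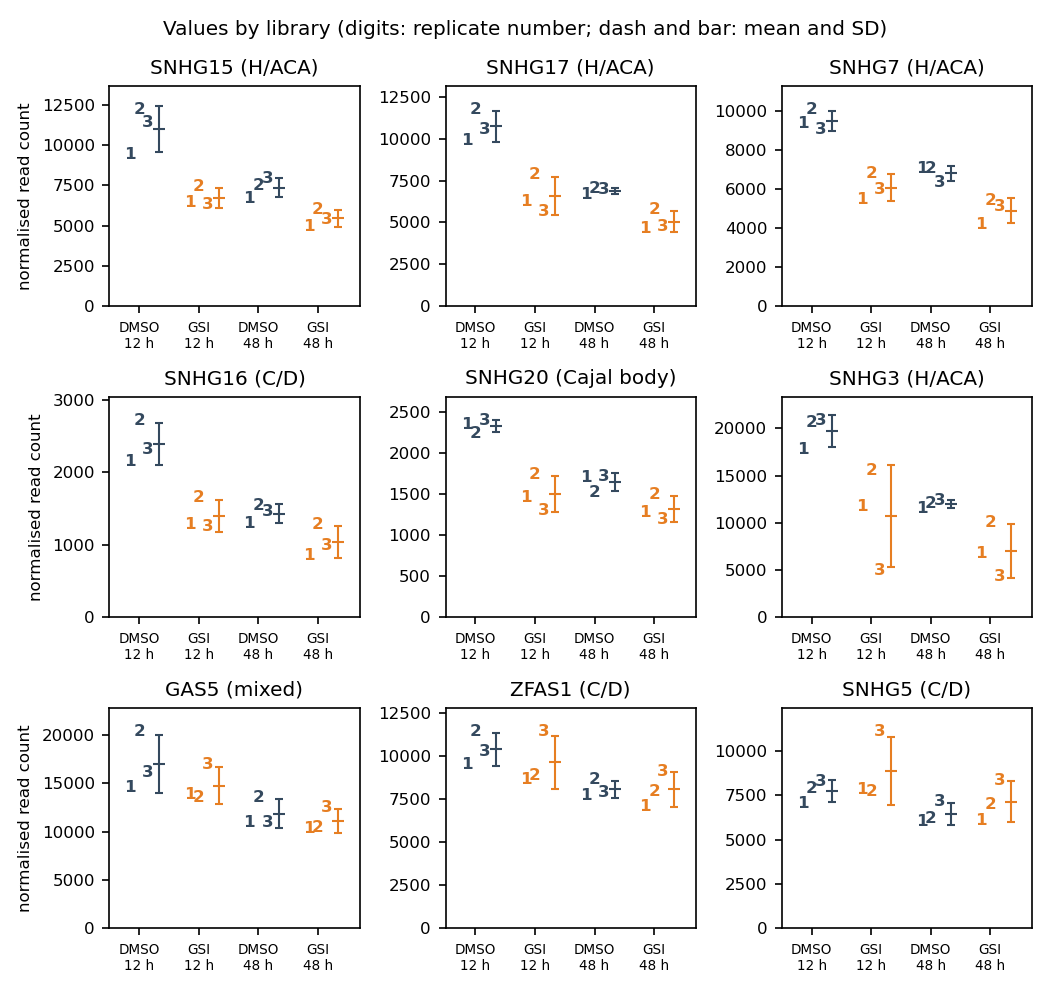
Normalised read counts (vertical axes, starting at 0) of 9 host transcripts in the 4 labelled groups, where a digit is the replicate number of a library and the dash with bar is the mean ± SD of 3. In the panels of SNHG15, SNHG17, SNHG7, SNHG16, SNHG20 and SNHG3 every library labelled GSI at 12 h lies below every library labelled DMSO at 12 h, while the groups overlap in those of GAS5, ZFAS1 and SNHG5.

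SNHG15, the host of SNORA9, had 9412, 12196 and 11412 under DMSO at 12 h, in the order of replicate numbers used throughout, and 6439, 7442 and 6318 under GSI. At 48 h it had 6706, 7478 and 7912 under DMSO and 4955, 6030.3 and 5359 under GSI. The 2 treatment groups did not overlap at either time, and DMSO at 12 h stood above all others. The log2 difference was −0.70 ± 0.11 SE at 12 h (adjusted p = 0.00313) and −0.44 ± 0.11 SE at 48 h (adjusted p = 0.0347).

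SNHG17, which carries 4 RNAs of the SNORA71 family, had 9904, 11734 and 10547 under DMSO and 6276, 7860.4 and 5669.7 under GSI at 12 h. Its 48 h values were 6676, 7038 and 6944 under DMSO and 4628, 5778 and 4749 under GSI. The groups were again apart at both times, with the GSI library numbered 2 the highest of its group at each. The differences were −0.71 ± 0.12 SE (adjusted p = 0.00345) and −0.45 ± 0.12 SE (adjusted p = 0.0371).

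SNHG7, a host of H/ACA RNAs, had 9351, 10079 and 9055 under DMSO and 5452, 6796 and 6011 under GSI at 12 h. It had 7039, 7043 and 6361 under DMSO and 4170.0, 5427 and 5102 under GSI at 48 h. No GSI library reached a DMSO library of the same time. SNHG7 changed by −0.65 ± 0.11 SE at 12 h (adjusted p = 0.00341) and by −0.48 ± 0.11 SE at 48 h (adjusted p = 0.0229). Of its exonic bases 25.2% lie opposite FAM69B, and reads of the 2 strands cannot be told apart unless the counting used strand, which is not given in the sources used here.

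SNHG3, the most abundant H/ACA host, carries SNORA73A and SNORA73B, RNAs known for a role in processing of the small ribosomal subunit RNA. It had 17747, 20634 and 20827 under DMSO and 11776, 15515 and 4931 under GSI at 12 h, then 11538, 12082 and 12394 under DMSO and 6751, 9990.3 and 4346 under GSI at 48 h. The library labelled GSI and numbered 3 was far below its group at 12 h, and the groups were apart at both times. The 12 h difference was −1.03 ± 0.34 SE (adjusted p = 0.048), and the call was lost in 14 of 23 alternatives, among them edgeR (adjusted p = 0.0718), DESeq2 (0.0726) and the fit without the GSI library numbered 3, where the difference was −0.54 (0.163). The 48 h difference was −0.85 ± 0.34 SE (adjusted p = 0.117). RCC1, a chromatin-bound exchange factor that shares 5.92% of the SNHG3 exonic bases on its strand, changed by −0.76 ± 0.13 SE at 12 h (adjusted p = 0.0033) and −0.63 ± 0.13 SE at 48 h (adjusted p = 0.0154).

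SNHG31, an antisense transcript near BARD1 that holds SNORA70I, was low throughout. It had 55.7, 43.0 and 37.1 under DMSO and 9.72, 11.4 and 20.1 under GSI at 12 h, and 65.0, 50.7 and 38.2 under DMSO and 20.4, 31.2 and 25.3 under GSI at 48 h. Its groups were apart at both times. The differences were −1.69 ± 0.32 SE (adjusted p = 0.00493) and −0.96 ± 0.32 SE (adjusted p = 0.0698). BARD1, a tumour suppressor whose start lies within 1000 bases on the other strand, had differences of 0.14 and 0.0046 at the 2 times and was not called (adjusted p = 0.281 and 0.980).

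SNHG11, which carries SNORA71E and SNORA60, had 2492, 2198 and 2356 under DMSO and 1675, 1954 and 1842 under GSI at 12 h, and 2326, 1800.3 and 2115 under DMSO and 1622, 1799 and 1664 under GSI at 48 h. The groups stood apart, by a narrow margin at 48 h. The 12 h difference was −0.37 ± 0.11 SE (adjusted p = 0.0325), and the call was lost with upper-quartile scaling (adjusted p = 0.104), with only the compared groups fitted (0.0655) and without any 1 of 5 of the 6 libraries compared (0.0579 to 0.128). The 2 H/ACA hosts that were not called were DANCR and SNHG9. DANCR, known as an inhibitor of differentiation and the host of SNORA26, ranged from 278.0 to 964.1 over all libraries, with the GSI library numbered 3 the lowest at both times. SNHG9, the host of SNORA78, ranged from 257.9 to 498.6.

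SNHG12 carries 3 H/ACA RNAs and SNORD99. It had 4439, 6008 and 4321 under DMSO and 2783, 3486 and 1566 under GSI at 12 h, and 3112, 3607 and 2659.8 under DMSO and 2026, 2617 and 1772 under GSI at 48 h. The groups were apart at both times, and at 12 h the GSI library numbered 3 was again the lowest. The 12 h difference was −0.97 ± 0.25 SE (adjusted p = 0.016) and was not called without the DMSO library numbered 2 (adjusted p = 0.0735). SNHG20, the host of the Cajal body RNA SCARNA16, had 2348, 2242 and 2393 under DMSO and 1456, 1739.9 and 1300.2 under GSI at 12 h, and 1702, 1514 and 1709 under DMSO and 1277, 1492 and 1189 under GSI at 48 h. Its groups did not overlap at either time. The differences were −0.64 ± 0.12 SE (adjusted p = 0.00496) and −0.32 ± 0.12 SE (adjusted p = 0.102).

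Among C/D hosts, SNHG1 and SNHG16 were called at 12 h. SNHG1, the host of SNORD22 and SNORD25 to SNORD31 and the member of highest value, had 23239, 29568 and 28275 under DMSO and 17758, 21424 and 19917 under GSI at 12 h. At 48 h it had 19566, 22858 and 22069.5 under DMSO and 15991, 20324 and 19195 under GSI, where the groups overlapped. The differences were −0.45 ± 0.12 SE (adjusted p = 0.0176) and −0.22 ± 0.12 SE (adjusted p = 0.223). The 12 h call was lost without the GSI library numbered 1 (adjusted p = 0.0835) or the DMSO library numbered 2 (0.0813) or 3 (0.0523). SLC3A2, a subunit of amino acid transporters that starts within 1000 bases of SNHG1 on the other strand, was not called (0.04 and −0.31).

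SNHG16, which holds SNORD1A, SNORD1B and SNORD1C, had 2147, 2715 and 2316 under DMSO and 1284, 1653 and 1255 under GSI at 12 h. Its 48 h values were 1288, 1544 and 1463 under DMSO and 847.7, 1276 and 984.2 under GSI. The groups were apart at both times, with the 2 nearest libraries close at 48 h. SNHG16 differed by −0.78 ± 0.16 SE (adjusted p = 0.00649) and −0.48 ± 0.16 SE (adjusted p = 0.0682). Of its exonic bases 30.6% lie opposite another gene model.

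The other abundant hosts were not called in either treatment comparison. GAS5, known to accumulate when growth stops, had 14587, 20356 and 16099 under DMSO and 13849, 13498 and 16949.9 under GSI at 12 h, and 10957, 13568 and 10994 under DMSO and 10349, 10437 and 12535 under GSI at 48 h. Its treatment groups overlapped at both times, with differences of −0.20 ± 0.14 SE (adjusted p = 0.317) and −0.09 ± 0.14 SE (adjusted p = 0.691).

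SNHG29, the host of SNORD49A, SNORD49B and SNORD65, had 18819.6, 23484 and 16815 under DMSO and 16015, 15003 and 18504 under GSI at 12 h, and 14433, 15648 and 12568 under DMSO and 12613, 12735 and 14593 under GSI at 48 h. SNHG32, the host of SNORD48 and SNORD52, had 13358, 19045 and 12838 under DMSO and 10256, 11602 and 14919 under GSI at 12 h, and 11612, 15837 and 11475 under DMSO and 10112, 12319.6 and 12680.3 under GSI at 48 h. Both overlapped between treatments at both times. Their 12 h differences were −0.25 ± 0.13 SE (adjusted p = 0.177) for SNHG29 and −0.29 ± 0.18 SE (adjusted p = 0.251) for SNHG32.

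ZFAS1, a transcript antisense to ZNFX1 with 3 RNAs of the SNORD12 family, had 9533, 11405 and 10250.2 under DMSO and 8672, 8851 and 11425 under GSI at 12 h, and 7687, 8638 and 7874 under DMSO and 7087, 7973 and 9134 under GSI at 48 h. SNHG5, the host of SNORD50A and SNORD50B, had 7039, 7887 and 8259 under DMSO and 7819, 7741 and 11098 under GSI at 12 h, and 6008, 6179 and 7139.9 under DMSO and 6088, 7007 and 8351 under GSI at 48 h. In both, the GSI library numbered 3 was the highest of its group at each time. The 12 h differences were −0.12 ± 0.12 SE (adjusted p = 0.524) for ZFAS1 and 0.18 ± 0.15 SE (adjusted p = 0.387) for SNHG5. Such a p does not show that levels were equal.

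SNHG28, the member called higher, lies near the limit of detection. It had 13.3, 4.0 and 7.07 under DMSO and 35.0, 17.7 and 21.5 under GSI at 12 h, and 15.9, 9.09 and 13.5 under DMSO and 22.9, 14.1 and 17.3 under GSI at 48 h. The 12 h groups were apart and the 48 h groups overlapped. The difference was 1.57 ± 0.41 SE (adjusted p = 0.0182) at 12 h and was not called without the GSI library numbered 1 (adjusted p = 0.0874) or the DMSO library numbered 2 (0.0833). All of its exonic bases lie in other gene models of its strand, among them VSIG8, so its reads are uncertain.

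The remaining members were not called between the treatment labels. SNHG6, SNHG10, SNHG14, SNHG19, SNHG21, SNHG25, SNHG26 and SNHG30 had 12 h differences between −1.02 (SNHG25) and −0.07 (SNHG19). SNHG25, the host of SNORD104, was lower in every GSI library than in every DMSO library at both times, with adjusted p = 0.067 and 0.0667. At 12 h, 13 of 26 members had every GSI library below every DMSO library, against 19.3% of all genes, and 1 had every one above, against 17.1%.

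The heat map of all 26 members shows the libraries one by one. The library labelled GSI and numbered 2 was the highest of its group for 16 of 26 members at 12 h and for 17 of 26 at 48 h, while GSI numbered 1 was the lowest for 17 of 26 at 48 h. Over 20 genes of a hypoxia response list, chosen because earlier results of these data showed it, the median deviation from the mean of all libraries was 1.83, 0.27 and 1.92 in the GSI 12 h libraries and 1.24, −0.26 and 0.71 in the GSI 48 h libraries, by replicate number. The list made up 0.306 to 0.656% of a library under GSI at 12 h and 0.215 to 0.490% at 48 h, against 0.200 to 0.211% and 0.183 to 0.195% under DMSO. Its median deviation lay between −1.16 and −0.81 in the DMSO libraries. Of that list 19 of 20 genes were called higher at 12 h and 10 at 48 h, against 10.1 and 4.33% of all genes. Its part in the members' differences was not tested. Without both GSI libraries numbered 2, limma called 14 of 26 members at 12 h, against 29.8% of all genes, and 8 at 48 h, all lower, against 11.9% lower.

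**Figure D2:**
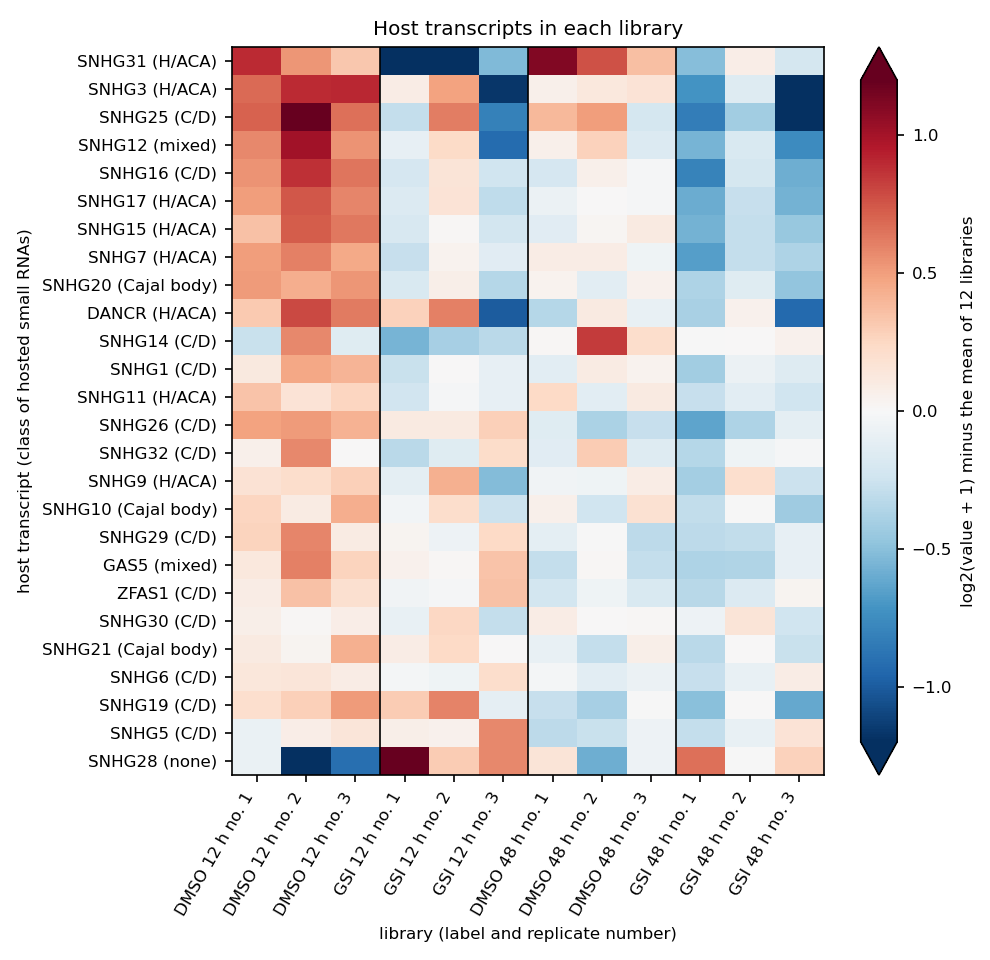
Each row is a host transcript with the class of its small RNAs, ordered by the 12 h difference, and each column is a library, with colour for log2(value + 1) minus the mean of the 12 libraries. The 3 columns labelled DMSO 12 h are red for most rows, and SNHG3, SNHG12 and DANCR are darkest blue in a library labelled GSI and numbered 3.

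At 48 h, fewer hosts were called. SNHG7, SNHG15 and SNHG17, all H/ACA hosts, were the 3 of 26 called lower, against 5.35% of all genes, and no member was called higher, against 4.33%. Over all genes 1032 were lower and 834 higher, which upper-quartile scaling turned to 682 and 1220. The median over the 26 was −0.23, and 10 of 26 had every GSI library below every DMSO library, against 18.5% of all genes. The count fell to 0 without the DMSO library numbered 1 or 2 or the GSI library numbered 1 or 3 of that time, where 0.529, 0.83, 0.389 and 0.306% of all genes were called lower. It fell to 1 without the DMSO library numbered 3, against 2.45% of all genes. The calls over all genes thus fell in the same fits. Deviations of same-numbered libraries of these groups correlated weakly (0.103 to 0.157). With the replicate number as a block over all 12 libraries, those of 12 h included, 8 of 26 were called lower, against 15.5% of all genes. These were SNHG1, SNHG3, SNHG7, SNHG12, SNHG15, SNHG16, SNHG17 and SNHG25.

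**Figure D3:**
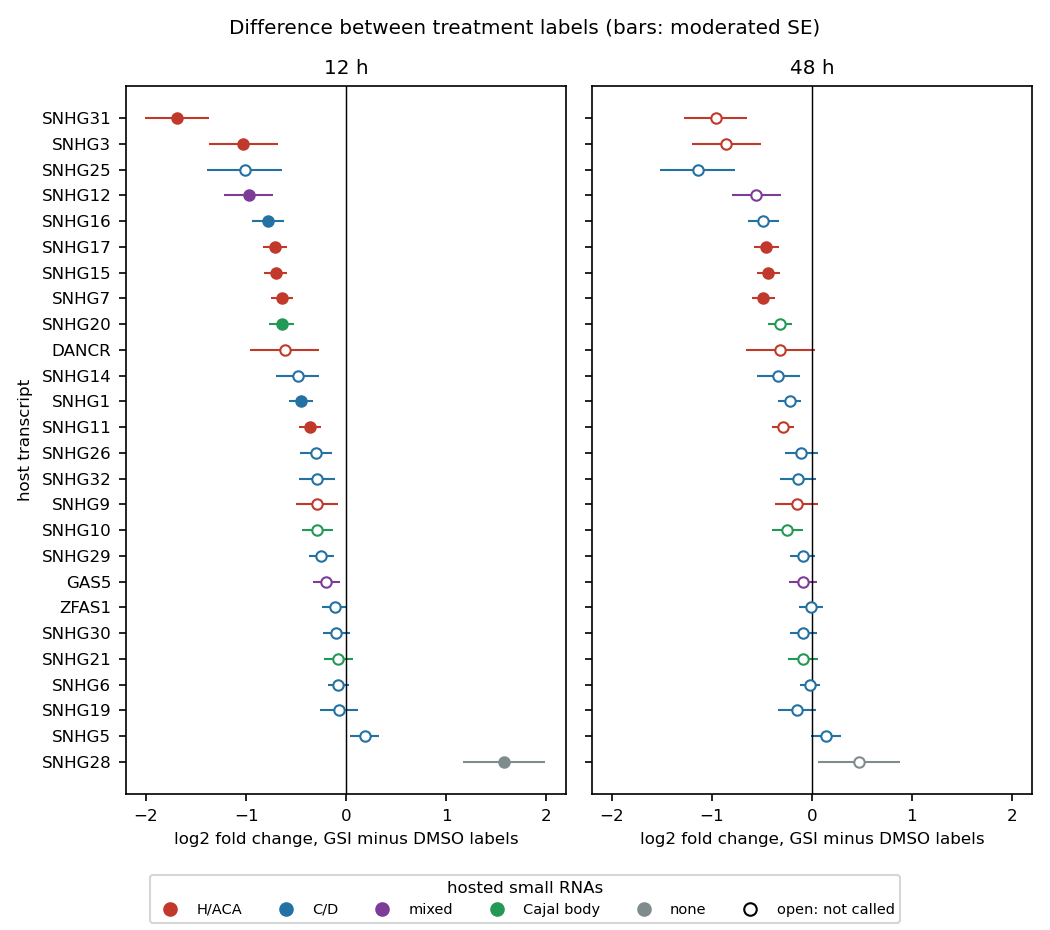
Points are log2 differences between the GSI and DMSO labels at 12 h (left) and 48 h (right) with bars for the moderated SE, filled where limma called the gene, coloured by the class of hosted small RNAs. At 12 h 11 points are filled and at 48 h 3, and 24 of 26 points lie below 0 at each time.

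The classes were laid side by side after the values were seen, as a description with no test. Of the 8 H/ACA hosts, 6 were called lower at 12 h and 3 at 48 h, with medians of −0.68 and −0.44. Of the 12 C/D hosts, 2 were called lower at 12 h and 0 at 48 h, with medians of −0.27 and −0.12. Over all genes 11.4% were called lower at 12 h and 5.35% at 48 h. The C/D count at 12 h (16.7%) thus lies near the share of all genes. The 3 Cajal body hosts had 1 called lower at 12 h (SNHG20), and of GAS5 and SNHG12 only SNHG12 was called. With the small RNAs that GENCODE 29 places in each host, the 12 h counts were 6 of 8 for H/ACA and 2 of 11 for C/D. Among protein-coding genes with such RNAs inside their spans on either strand, 29 of 91 with H/ACA (31.9%) were called lower at 12 h. Of those with C/D RNAs, 25 of 96 (26.0%) were called lower. The 96 include the member SNHG32, which GENCODE 29 types as protein-coding. The share of all genes was 11.4%, and the medians of these coding hosts were −0.09 and −0.12.

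**Figure D4:**
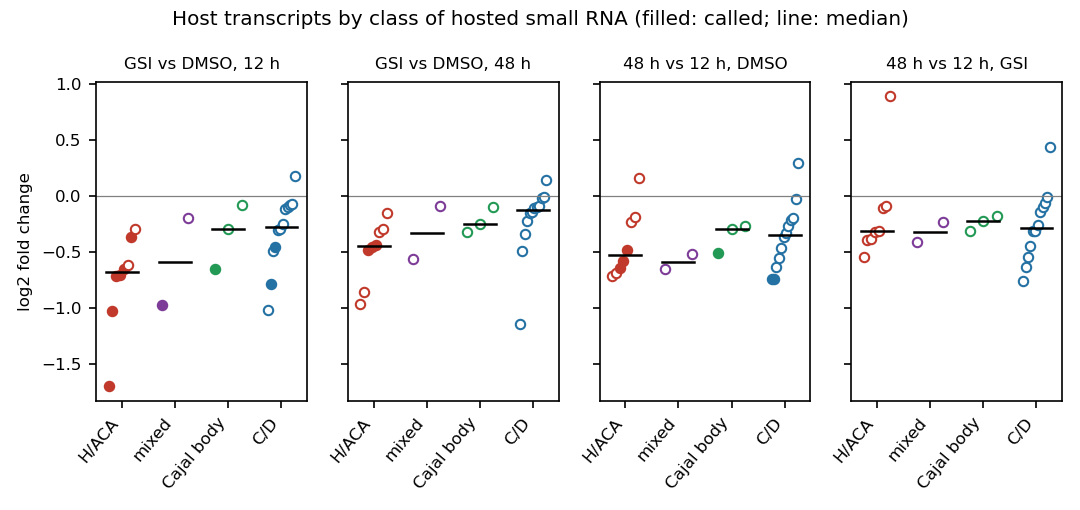
Log2 differences of the host transcripts in 4 comparisons, grouped by hosted small RNA, each point a transcript, filled where called, with a line at the class median; SNHG28, which hosts none, is not drawn. In the 12 h panel the H/ACA line lies at −0.68 and the C/D line at −0.27, and in the comparison of the GSI groups no point is filled.

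Between times under DMSO, 6 of 26 hosts were lower at 48 h than at 12 h, against 2.51% of all genes, and no member was called higher, against 2.03%. They were SNHG7 (−0.48 ± 0.11 SE), SNHG15 (−0.57 ± 0.11 SE), SNHG16 (−0.74 ± 0.16 SE), SNHG17 (−0.64 ± 0.12 SE), SNHG20 (−0.51 ± 0.12 SE) and SNHG26 (−0.74 ± 0.16 SE), with adjusted p from 0.00975 (SNHG17) to 0.0328 (SNHG20). SNHG26, the host of SNORD93, had 281.3, 287.7 and 269.6 at 12 h and 182.5, 154.6 and 166.1 at 48 h under DMSO, and 217.7, 217.6 and 245.8 at 12 h and 129.8, 155.9 and 186.2 at 48 h under GSI. Its time groups did not overlap in either treatment. In all, 17 of 26 members had every 48 h DMSO library below every 12 h one, against 13.1% of all genes. Leaving out the DMSO 12 h library numbered 2 gave a count of 0, against 0.939% of all genes. Leaving out DMSO 12 h numbered 3 or DMSO 48 h numbered 1 or 3 gave 2, against 1.37, 1.35 and 1.28%. This comparison and that of treatments at 12 h share the DMSO 12 h libraries, and the highest of the 12 values fell in DMSO 12 h numbered 2 for 12 members and in DMSO 12 h numbered 3 for 4.

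Same-numbered DMSO libraries deviated together across time, and with that number as a block within treatment 21 of 26 members were called lower, against 15.2% of all genes, and 1 higher (SNHG14), against 13.9%. GAS5 (−0.52 ± 0.14 SE), SNHG29 (−0.46 ± 0.13 SE), ZFAS1 (−0.36 ± 0.12 SE) and SNHG1 (−0.33 ± 0.12 SE) were among those called lower with the block and not without it, and GAS5 was also called by edgeR (adjusted p = 0.0479). SNHG9, SNHG28, SNHG30 and SNHG31 were not called in either fit.

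Between times under GSI, limma called 0 of 26 members, against 3.98% of all genes (2.37% lower and 1.62% higher), while 9 had an unadjusted p under 0.05, against 16% of all genes. With edgeR 0 were called and with DESeq2 2, SNHG19 (adjusted p = 0.0288) and SNHG26 (0.0217), both lower, against 3.84% of all genes. The median was −0.31, with 5 members apart and lower, against 9.91% of all genes, and 2 apart and higher, SNHG14 and SNHG31, against 9.94%. With the block within treatment, 16 were called lower, against 16.1% of all genes, and 2 higher (SNHG14 and SNHG31), against 12.6%. SNHG14 had 3157, 3516 and 3725 at 12 h and 4624, 4659 and 4819.9 at 48 h under GSI. Under DMSO it had 3875, 6953 and 4214 at 12 h and 4681, 8301 and 5385 at 48 h, where the library numbered 2 was the highest at both times.

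The difference between the treatment effects at 48 h and at 12 h was tested itself. Limma called 0 of 26 members (0 at an unadjusted p under 0.05, against 4.54% of all genes), and edgeR and DESeq2 also called 0. Over all genes limma and edgeR called 0 and DESeq2 called 0.364%. The estimates were above 0 for 21 of 26 members, which means a less negative estimate at 48 h, with a median of 0.15. With the block within treatment SNHG1 (0.23, adjusted p = 0.0409) and SNHG20 (0.33, adjusted p = 0.0295) were called higher, against 1.98% of all genes.

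Genes that act with the small RNAs were counted from lists chosen with earlier results of these data known. The first list held 20 proteins of the small nucleolar ribonucleoprotein particles and their assembly. Of these, 15 were called lower and 1 higher at 12 h, against 11.4 and 10.1% of all genes. At 48 h 9 were called lower, against 5.35%, and the medians at the 2 times were −0.49 and −0.47. Between times 5 of them were called lower under DMSO and 2 under GSI, against 2.51 and 2.37% of all genes. DKC1, the pseudouridine synthase of H/ACA particles, fell by 0.88 at 12 h and 0.59 at 48 h on the log2 scale, and it is itself a snoRNA host. ZNHIT6 (−0.70), an assembly factor of C/D particles, and NOLC1 (−0.95), a nucleolar chaperone, fell at 12 h. SHQ1, an assembly factor of H/ACA particles, fell by 0.48 at 12 h and 0.55 at 48 h and stands on the NOTCH1 target list too, and COIL, the scaffold of Cajal bodies, by 0.28 and 0.40. FBL, the methyltransferase of C/D particles, was not called between treatments (adjusted p = 0.341 and 0.354) and was lower at 48 h than at 12 h in both treatments (−0.47 in each).

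Protein-coding genes also carry small nucleolar RNAs. Of 26 hosts that encode ribosomal proteins or translation factors, 2 were called lower and 1 higher at 12 h, with a median of 0.06. Over all genes 11.4% were called lower and 10.1% higher at 12 h, and this list lay below each share. EIF4G2 (−0.58) and RPL17 (−0.49) fell and RPL13A (0.34) rose. Of 20 other coding hosts, 12 were called lower and 1 higher at 12 h, and 6 lower at 48 h, with medians of −0.50 and −0.35. At 48 h the share of all genes called lower was 5.35%. WDR43 (−0.92), a factor of ribosomal RNA synthesis, TNPO2 (−0.63), an import receptor, and RCC1 (−0.76) had the smallest p at 12 h, and RCC1 (−0.63), WDR43 (−0.62) and the chaperone HSPA8 (−1.23) at 48 h. Of 14 factors of nonsense-mediated decay, 6 were called lower at 12 h and 3 at 48 h, against 11.4 and 5.35% of all genes. None was called higher, and the medians were −0.21 and −0.23. The helicase UPF1 fell by 0.45 and 0.28, and EIF4A3 of the exon junction complex by 0.52 and 0.48, at the 2 times.

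A list of 15 long non-coding RNAs that host no such RNA had a median of 0.05 at 12 h. Of these, 0 were called lower and 2 higher, against 11.4 and 10.1% of all genes. The 2 were LINC-PINT (1.28) and NEAT1 (1.26), a scaffold of nuclear paraspeckles. At 48 h CYTOR (−0.45) was called lower and MIAT (0.72) higher, against 5.35 and 4.33%. In so short a list these counts lie near the shares of all genes. PVT1, a neighbour of MYC, was lower at 48 h than at 12 h under DMSO (−0.80) and GSI (−0.76). Of 2962 long non-coding genes past the filter that are not members, 146 were called lower and 370 higher at 12 h, with a median of 0.20. The shares of all genes were 11.4 and 10.1%. These 2962 were not sorted by whether they host small RNAs.

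**Figure D5:**
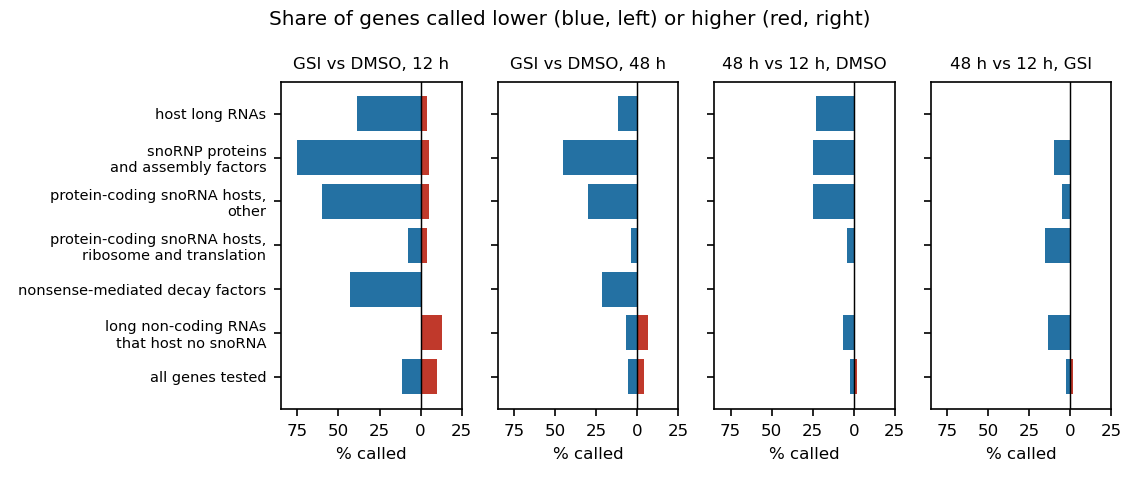
Bars give the percentage of each list's genes past the filter that limma called lower (left, blue) or higher (right, red) in 4 comparisons, with all genes tested in the bottom row. At 12 h 10 of 26 host transcripts, 15 of 20 particle proteins and 2 of 26 ribosome-related coding hosts were called lower, against 11.4% of all genes.

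The small RNAs themselves are poorly captured by poly-A selection, and their reads cannot be told apart from those of unspliced host RNA. Of the 142, 97 had a row in the table and 17 passed the filter. Of the 17, 7 were called lower at 12 h, against 11.4% of all genes, with a median of −0.98, and none was called higher. At 48 h 2 were called lower and 1 higher, against 5.35 and 4.33% of all genes. SNORA26 and SNORD1B, called lower at 12 h, passed the filter only through the DMSO 12 h libraries. SNORD116-2, called lower at 48 h, and SNORD116-1 reached 10 in DMSO libraries alone. For these, lower values under GSI are partly built in by the filter, and the counts and the median include them. SNORD104 had means of 487.3 under DMSO and 246.3 under GSI at 12 h and 307.6 and 147.1 at 48 h. It was called lower at both times (−1.04, adjusted p = 0.0132, and −1.08, adjusted p = 0.0247), with host differences of −1.02 and −1.14 that were not called. SNORA73B fell by 1.47 at 12 h beside its host SNHG3, and SNORD99 by 1.00 beside SNHG12. SNORD12 (−0.80) and SNORD60 (−1.13) were called lower at 12 h where their hosts ZFAS1 and SNHG19 were not called. SNORA71C (−0.31) and SNORA60 (0.09) were not called where their hosts SNHG17 and SNHG11 were.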

How the data were processed

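The 12 libraries were measured by RNA-seq of poly-A selected RNA. Per the submitters' processing notes, TopHat2 2.0.10 and HTSeq 0.6.1 were used with the hg19 build, next to FastQC 0.10.1 and DESeq2. Strand use in counting is not given in the sources used here. Values were deposited as a normalized signal, which is the authors' count for a gene after division by the size factor of its library. All values were whole multiples of 1 read within 0.01, which gave back the reads (73939612 to 160702764 per library). This held for DMSO 12 h number 2 too (largest distance 0.000714), although its step, close to 1, leaves its unit less certain. Genes were matched to symbols by Ensembl identifier (50127 of 62069).

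Genes that reached 10 in 3 or more libraries (19281) were fitted with limma 3.58.1 (R 4.3.3) on log2(value + 1), with a mean for each of 4 groups, a trended prior and Benjamini-Hochberg adjustment over all of them, and called at 0.05. The test was tried on simulated data first. EdgeR 4.0.16 on recovered reads called 4201, 1919, 931 and 740 genes for treatment at 12 and 48 h and for time under DMSO and GSI. Other alternatives were the pseudocount, filter, scaling, DESeq2 1.42.0, the groups fitted, a replicate block and leaving out libraries. Deviations of same-numbered libraries, whose numbers come from the labels, were correlated over genes. Between treatments the values were 0.0676 to 0.272 at 12 h and 0.103 to 0.157 at 48 h. Between times they were 0.545 to 0.612 under DMSO and 0.400 to 0.545 under GSI. The last 3 comparisons, over 0.1 throughout, were taken as paired and also fitted with a block. The main counts, adjusted p-values and figures still come from the fit without a block.

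The members and lists were chosen with earlier results of these data known. Members called in any comparison of groups, or among the 8 of highest mean, have every library's value. Other lists have the 3 genes of smallest p in each comparison named, and the label check NRARP, DTX1, HES1, MYC and NOTCH1. Promoters are those of members called at both times, filled up to 4 by p at 12 h. Small RNAs were assigned to hosts by position in RefSeq, without regard to strand. RefSeq was chosen over GENCODE 29 after the latter proved to lack those of GAS5. Sequences are from RefSeq promoter entries and GENCODE 29; none is from the authors' build, 1 small RNA sequence is not reported here, and exon overlaps and lengths are approximations for the same reason. A p-value here reflects only how much these libraries vary.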

Additional observations from a re-analysis of the deposited data

How the results depend on the processing

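No direction of a called member or of a median reversed under any of the alternatives run. The median over the members at 12 h was −0.33 and moved to −0.24 with upper-quartile scaling and −0.46 without both GSI libraries numbered 2. Upper-quartile scaling also moved the 12 h median over all genes, from 0.00064 to 0.089. For time under DMSO the members' median was −0.41 and moved to −0.38 with upper-quartile scaling, where that over all genes moved from −0.0019 to 0.034. The members' median became −0.36 with no filter beyond a value above 0 and −0.46 with a filter at 50. These settings changed only which members entered it, as the former added SNHG22 and the latter dropped SNHG28. Each member's own fold change stayed the same. Of the counts of members called, that at 48 h went from 3 to 6 with only the compared groups fitted, 6 with DESeq2 and 8 without both GSI libraries numbered 2, where the share of all genes called went from 9.68% to 12.8, 18.2 and 21%. That for time under GSI went from 0 to 2 with DESeq2, and the share of all genes from 3.98 to 6.52%. Apart from the changes of filter, the cause of these moves was not tested.

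With the replicate number as a block over all libraries, the paired fits called 13 members at 12 h (11 without the block), 8 at 48 h, 11 for time under DMSO and 7 for time under GSI, where they called 36.1, 27.3, 12.3 and 10.1% of all genes. With the replicate block within treatment, 22 were called for time under DMSO, 18 for time under GSI and 2 for the difference between treatment effects, against 29.2, 28.8 and 6.10% of all genes. At 12 h the numbers were not taken as paired. Of the same-numbered pairs only number 2 correlated over 0.1 (0.272), while GSI number 3 with DMSO number 1 gave 0.139.

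Leaving out 1 library at a time gave 6 to 13 members called at 12 h (medians −0.46 to −0.30), 0 to 7 at 48 h (−0.33 to −0.17), 0 to 9 for time under DMSO (−0.46 to −0.36), 0 to 2 for time under GSI (−0.32 to −0.20) and 0 for the difference between treatment effects. In the same fits the share of all genes called ran from 8.29 to 29.4%, 0.617 to 15.7%, 1.83 to 5.53%, 2.3 to 3.82% and 0 to 0.0207%. The lowest counts at 12 h, 6 and 7, came without DMSO 12 h number 2 and GSI 12 h number 1 (9.13 and 8.29% of all genes). At 48 h the count was 5 without GSI 12 h number 2, 6 without GSI 12 h number 3 and 7 without GSI 48 h number 2 (14.2, 11.8 and 15.7% of all genes). For time under GSI it was 1 without GSI 48 h number 2 and 2 without GSI 12 h number 3 (3.05 and 3.58%). SNHG7, SNHG15, SNHG16, SNHG17, SNHG20 and SNHG31 were called at 12 h in all 23 alternatives. Depth limits SNHG28 and SNHG31 most, with values of at most 35.0 and 65.0.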
